A study of Mus musculus with 9 samples.

Results

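Macrophages given the compound 6860766 before activation through CD40 were compared with macrophages given vehicle before the same activation. The comparison was chosen by the titles of the samples and not by any measured value. It rests on 6 of the 9 arrays of the study, 3 with 6860766 and 3 with vehicle, and covers all 11406 features that passed the detection filter. Gene expression was measured on Illumina mouse bead arrays, on which labelled cRNA binds to beads that carry 1 probe sequence each. The cells were bone marrow-derived macrophages of C57Bl/6 mice, grown from marrow in RPMI medium with 15% medium conditioned by L929 cells. The 6860766 group received 6860766 for 1 h, the 6877002 group received the related compound 6877002 for 1 h, and the vehicle group received vehicle for 1 h. All 3 groups then received FGK45, an agonistic antibody against CD40, at 25 ug/ml for 8 h. Every group was therefore activated, and no array analysed here held macrophages without the antibody. The labels give no dose of either compound, and the comparison holds 1 time point. Each group had 3 mice, numbered 1 to 3, and the labels do not say whether a number marks the same animal in different groups. P-values measure the spread between these arrays.

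CD40 belongs to the receptors of the tumour necrosis factor family and sits on macrophages and B cells. It has no enzyme activity of its own and recruits TRAF adaptor proteins, of which TRAF6 leads to NF-kB and MAP kinase signalling in macrophages. The compounds called TRAF-STOPs, to which 6860766 and 6877002 belong, were made to block the binding of TRAF6 to CD40. Activated macrophages also make type I interferon, which acts back on the cells through its receptor and switches on a large set of antiviral genes. Their sterol genes are driven by SREBP2, and their genes for amino acid synthesis and import are driven by ATF4 when amino acids are short or the endoplasmic reticulum is stressed.

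The arrays carried macrophage RNA by their markers. All 8 macrophage markers with a probe were detected, among them Csf1r, Adgre1, Lyz2 and Mertk, and 0 of 10 fibroblast markers. Among markers of 7 other kinds of cell, 4 of 9 neutrophil markers and 1 each of the dendritic, T, B, natural killer, erythroid and mast cell markers were detected, and none of them passed the test. The summed intensity of the 4 neutrophil markers (Mpo, Camp, Ltf, Ngp) was 638 to 692 with 6860766 and 583 to 621 with vehicle, and its part in the results was not tested. Fewer cells of a type and less RNA per cell cannot be told apart in such bulk samples. Detection was similar across arrays, with 15271 to 15926 of 45281 probes above background. Correlations across features were 0.993 to 0.996 within groups and 0.992 to 0.994 between 6860766 and vehicle arrays. The 6860766 arrays of mice 1 and 2 and the vehicle array of mouse 1 shared slide 1, the 6860766 array of mouse 3 lay on slide 3, and the vehicle arrays of mice 3 and 2 lay on slides 2 and 4. The 6877002 arrays of mice 2 and 1 lay on slide 3 and that of mouse 3 on slide 4. On the first principal component of all 9 arrays, the 6860766 array on slide 3 was at 4.43 and those on slide 1 at -13.8 and -12.0, and the vehicle array on slide 4 was at 1.27 and those on slides 1 and 2 at -8.35 and -7.38.

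With 6860766, 328 of 11406 features (2.88%) differed from vehicle, at an adjusted p under 0.05 in limma's moderated test across all features. Of these, 124 were higher with 6860766 (1.09% of features) and 204 lower (1.79%), so that 62.2% of the calls were falls. The changes were small: the median fall was -0.45 on the log2 scale, to 0.73 of the vehicle level, the median rise was 0.41, to 1.33 times the vehicle level, and 5 features passed 1 log2 unit. The median difference over all features was 0.01, and 87.2% of them lay within 0.25 of 0. Calls were more frequent among brighter features, with 10 among the 2852 dimmest features (0.351%) and 164 among the 2852 brightest (5.75%). The 3 arrays of each group did not overlap for 323 of the 328 calls, against 15.4% of all features, and the calls whose arrays overlapped were Tusc1, Samhd1, Egr2, Cdkn1c and Serpina3f.

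The number of calls depended on single arrays. Their direction was kept, but the selection nearly fixed this, since the arrays of 323 of the 328 did not overlap. Without the vehicle array of mouse 3, 172 features passed, and without the 6860766 array of mouse 2, 206. Without all arrays of mouse 1, 130 passed, and without those of mouse 2, 106. Scaling the arrays to a common median over all probes, chosen after the data were seen, left 167 calls, of which 51.5% were higher against 37.8% here. When slide entered the fit as a block, the calls numbered 310 and shared 237 with the 328. Within slide 1, whose arrays also entered the selection, every one of the 328 had the same sign. Of the 274 calls with a gene symbol, 101 higher and 173 lower, 114 passed whichever of the 6 arrays was left out.

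**Figure D1:**
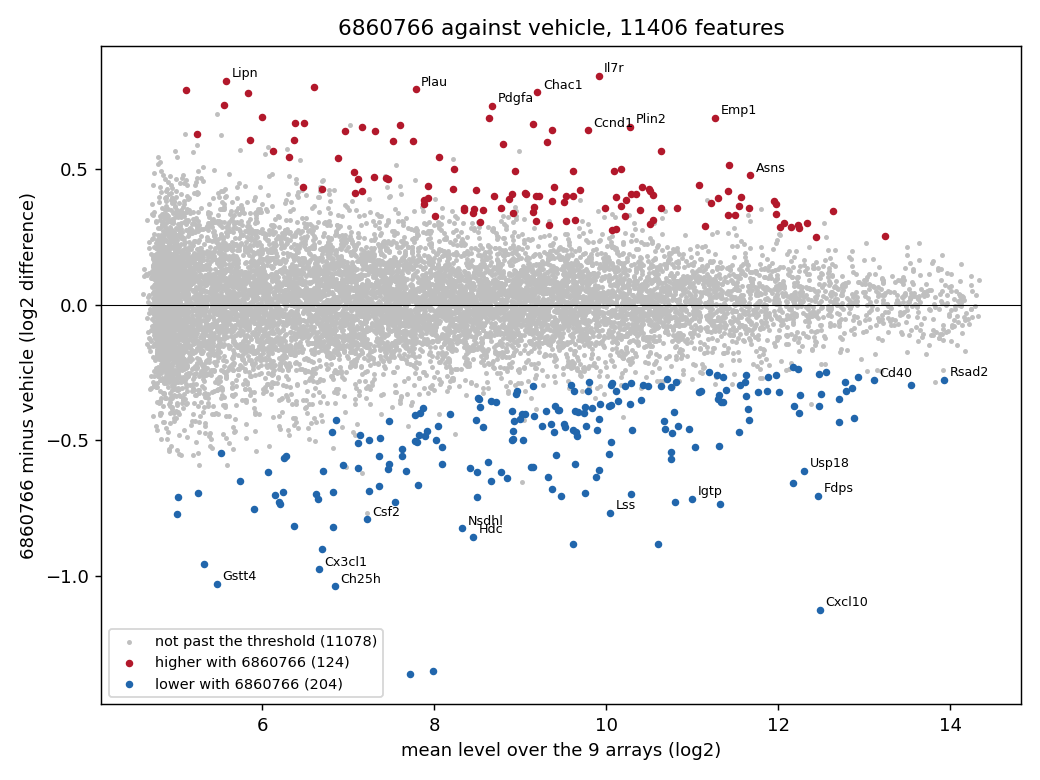
Difference between 6860766 and vehicle (log2, vertical axis) against the mean level over the 9 arrays (log2, horizontal axis) for 11406 features. Red points are the 124 features higher with 6860766 and blue points the 204 lower, and the larger number of blue points among the bright features can be seen on the right.

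The largest named fall was that of Cxcl10, a chemokine that draws activated T cells and is induced by interferon. Its level was 11.67, 11.64 and 11.77 on the 6860766 arrays of mice 1, 2 and 3, against 12.72, 12.78 and 12.95 on the vehicle arrays (log2, here and below in the order mouse 1, 2, 3). All 6860766 arrays lay below all vehicle arrays by more than the range within either group, and the difference was -1.12 ± 0.07 (SE, n = 3 arrays per group), 0.46 of the vehicle level, with an adjusted p of 1.63e-08 in limma. Ch25h, the enzyme that makes 25-hydroxycholesterol, was at 6.04, 5.95 and 6.15 with 6860766, against 7.00, 7.06 and 7.20 with vehicle. Again the groups were apart, by -1.04 ± 0.11 (adjusted p = 2.33e-05). Hdc, which makes histamine from histidine, was at 7.77, 7.91 and 8.05 with 6860766, against 8.79, 8.71 and 8.79 with vehicle, a difference of -0.85 ± 0.09 (adjusted p = 2.30e-05). Within slide 1 the differences were -1.07 for Cxcl10 and -1.01 for Ch25h.

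Gstt4, a glutathione transferase, was dim, at 5.12, 5.03 and 4.97 with 6860766, against 6.18, 6.13 and 5.90 with vehicle, and fell by 1.03 ± 0.16 on the log2 scale (adjusted p = 0.00091). The largest named rise was that of Il7r, a chain of the interleukin-7 receptor, at 10.19, 9.94 and 10.08 with 6860766, against 9.39, 9.19 and 9.11 with vehicle. The groups did not overlap and the rise was 0.84 ± 0.08, or 1.79-fold (adjusted p = 8.33e-06). Lipn, a lipase of the acid lipase family, rose by 0.83 ± 0.15, and Agap1, a GTPase activator of Arf proteins in membrane traffic, by 0.80 ± 0.15.

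**Figure D2:**
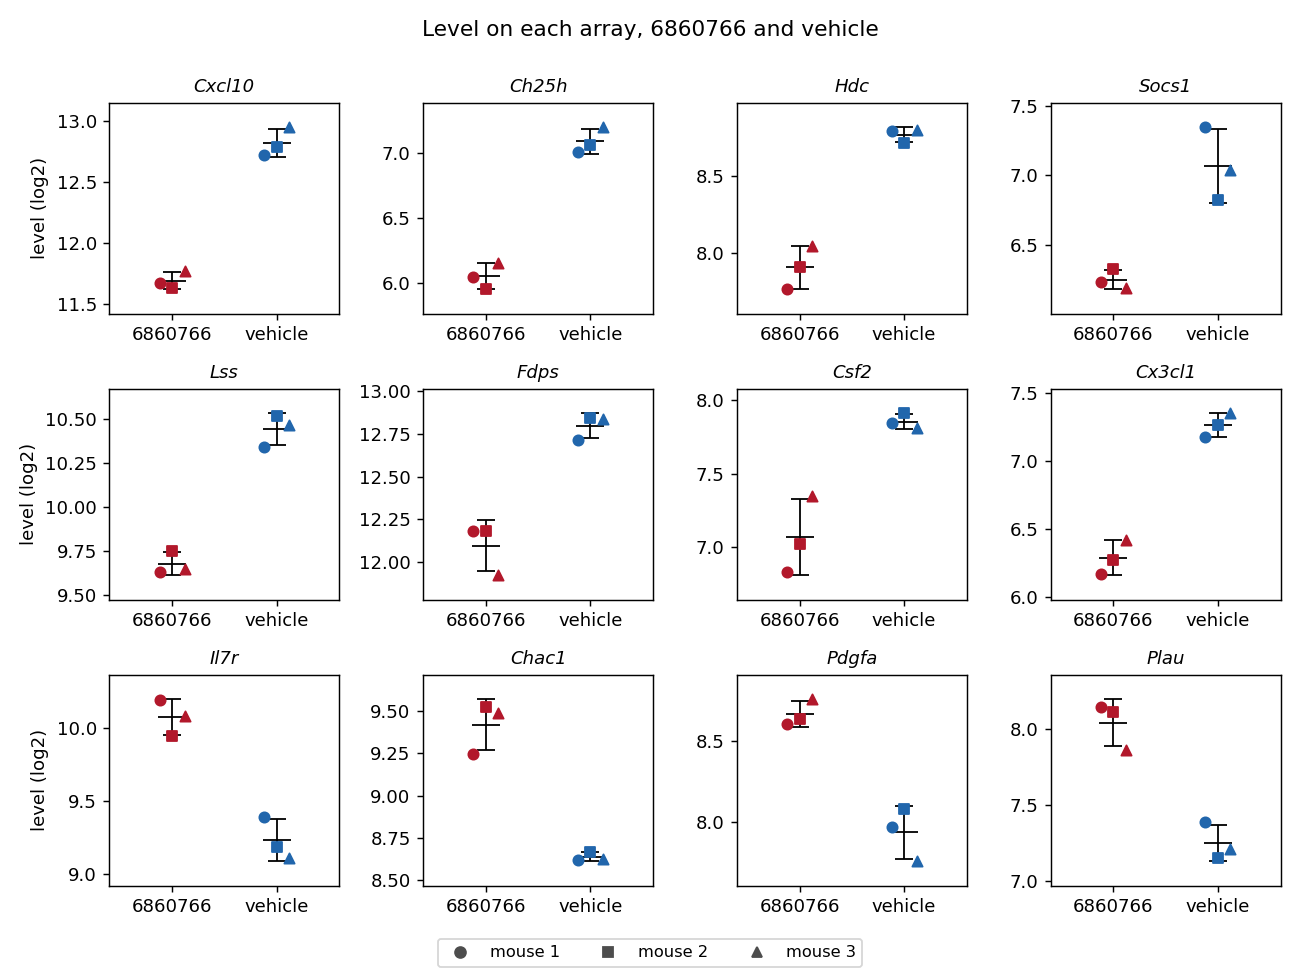
Level (log2) of 12 genes on each 6860766 array (red, left in each panel) and vehicle array (blue, right), with the mouse number given by the marker and the mean and SD by the bars (n = 3 arrays per group). In each of the 12 panels the 3 arrays of one group lie on one side of the 3 arrays of the other, as for Cxcl10 with 11.64 to 11.77 against 12.72 to 12.95.

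Of the 51 gene lists examined, that of interferon effectors and sensors held the most falls, 20. The 51 lists were drawn up with earlier results of these data known, so their counts are a description. Over all features 1.79% fell and 1.09% rose. Interferon-induced genes often carry an interferon-stimulated response element close to their start. Its core, GAAA followed after 2 bases of any kind by a second GAAA, was searched on both strands in the 250 bases before the gene start of RefSeq's GRCm38.p6 annotation. It stood in 28 of 136 promoters of genes that fell (20.6%), in 4 of 81 promoters of genes that rose (4.94%), in 2.93% of the 7462 promoters of tested genes and in 3.04% of all 27025. On the lists of interferon effectors, GTPases and PYHIN and SLFN genes, it stood in 8 of 17 promoters of genes that fell (47.1%). The letters TTCNNNGAA, which STAT dimers can bind, stood in 14.0% of promoters of genes that fell, 8.64% of those that rose and 6.10% of those tested. Both motifs were chosen with the results known, and a match is a description of the letters and not of a bound site. The promoters of Cxcl10 (chr5:92348890-92349139, minus strand), Igtp (chr11:58199306-58199555, plus strand), Socs1 (chr16:10785537-10785786, minus strand) and Isg15 (chr4:156200819-156201068, minus strand) are shown as examples. Each belongs to a chemokine, GTPase, feedback or effector gene that fell and holds the core, as not every fallen interferon gene does. They come from RefSeq (GRCm38.p6), 5′ to 3′ in the direction of the gene, with every match of that core in capitals.
Cxcl10: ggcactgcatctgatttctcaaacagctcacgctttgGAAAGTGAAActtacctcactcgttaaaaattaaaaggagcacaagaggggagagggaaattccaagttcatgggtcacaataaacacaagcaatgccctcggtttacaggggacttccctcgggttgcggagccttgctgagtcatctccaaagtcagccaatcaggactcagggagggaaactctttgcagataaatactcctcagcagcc
Igtp: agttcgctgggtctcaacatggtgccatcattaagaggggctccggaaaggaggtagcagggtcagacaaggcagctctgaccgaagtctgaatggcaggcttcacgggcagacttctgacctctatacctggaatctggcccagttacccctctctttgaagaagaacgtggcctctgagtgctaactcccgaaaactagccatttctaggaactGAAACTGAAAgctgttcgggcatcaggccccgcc
Socs1: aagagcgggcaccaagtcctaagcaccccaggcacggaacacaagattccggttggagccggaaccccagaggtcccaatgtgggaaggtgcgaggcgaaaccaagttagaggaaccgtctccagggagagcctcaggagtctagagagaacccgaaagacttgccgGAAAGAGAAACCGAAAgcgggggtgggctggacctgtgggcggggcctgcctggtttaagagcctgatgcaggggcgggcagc
Isg15: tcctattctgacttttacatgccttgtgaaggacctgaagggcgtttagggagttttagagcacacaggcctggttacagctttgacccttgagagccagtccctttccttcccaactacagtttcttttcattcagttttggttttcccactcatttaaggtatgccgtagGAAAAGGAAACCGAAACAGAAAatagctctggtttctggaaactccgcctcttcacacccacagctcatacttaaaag
The match lies at -213 to -204 in Cxcl10 and at -34 to -25 in Igtp, counted from the gene start, and the runs of Socs1 and Isg15 hold 2 and 3 overlapping matches.

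Of 33 tested interferon effectors and sensors, 20 fell with 6860766 (60.6%, against 1.79% of all features), 0 rose and 13 did not pass. Of the 33 differences 32 were negative. The median of the list was -0.36, against 0.01 over all features. Mx1, the gene of a dynamin-like GTPase, was at 7.76, 7.94 and 7.81 with 6860766, against 8.26, 8.66 and 8.72 with vehicle. The groups were apart, by -0.71 ± 0.11 (adjusted p = 0.0011), and its relative Mx2 fell by 0.60 ± 0.09. Usp18, the protease that removes ISG15 and dampens the interferon receptor, was at 11.76, 11.78 and 11.91, against 12.31, 12.51 and 12.46 with vehicle, and fell by 0.61 ± 0.07 (adjusted p = 2.59e-05). The bright Rsad2, which makes an antiviral nucleotide, was nearly constant within groups, at 13.66, 13.65 and 13.66 with 6860766 against 13.92, 13.89 and 13.99 with vehicle, and fell by only 0.28 ± 0.06.

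Some members of the Oas family make the activator of RNase L. Of that family 3 were called: Oas1b fell by 0.73 ± 0.16, Oas1a by 0.59 ± 0.11 and Oas2 by 0.35 ± 0.08. Their relatives Oasl1 and Oasl2 fell by 0.47 ± 0.11 and 0.33 ± 0.07. Sensors of viral RNA also fell, Ddx58, the gene of RIG-I, by 0.47 ± 0.12 and Dhx58, the gene of LGP2, by 0.40 ± 0.07. Ifit3 fell by 0.40 ± 0.08 and Ifit2 by 0.33 ± 0.08, both of the family that binds viral RNA ends, and Isg15, the ubiquitin-like modifier, by 0.37 ± 0.09. For Isg15 the 6860766 array of mouse 3, at 12.24, lay nearer to the vehicle arrays than those of mice 1 and 2, at 11.96 and 12.01. Several of these genes have near-identical relatives, and how far a probe reads the relative is not known here.

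The interferon count varied with the array left out. The list had 11 falls without the vehicle array of mouse 3 and 13 without the 6860766 array of mouse 2. The calls that held up to the removal of any one array were 10 of the 20: Dhx58, Dtx3l, Epsti1, Ifit3, Isg20, Mx1, Mx2, Oas1a, Tor3a and Usp18. The list median was -0.34 within slide 1 and -0.24 between the 6860766 array on slide 3 and the vehicle array on slide 4.

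Interferon-inducible GTPases attack the vacuoles of intracellular microbes. They fell in 4 of 11 cases (36.4%, against 1.79% of all features) and rose in 0, with a median of -0.30. Igtp was at 10.40, 10.30 and 10.55 with 6860766, against 11.07, 11.15 and 11.19 with vehicle, a difference of -0.71 ± 0.07 (adjusted p = 8.33e-06). The same direction was called for Irgm2 (-0.57 ± 0.08), Gm4951 (-0.56 ± 0.13) and the very large GTPase Gvin1 (-0.36 ± 0.09). This count was 8 without the 6860766 array of mouse 3 and 2 without the 6860766 array of mouse 1 or 2 or the vehicle array of mouse 2 or 3. Gm12250, also named Irgb10 in mouse and next to Igtp and Irgm2 among the tested genes of chromosome 11, fell by 0.70 ± 0.11. Similar runs of 3 neighbouring tested genes that all fell were Ifi214, Ifi213 and Ifi207 on chromosome 1 and Ifit2, Ifit3 and Ifit1bl1 on chromosome 19.

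The PYHIN proteins sense DNA in the cytosol and nucleus. On a list of 8 of their clustered genes, chosen after values were seen, 5 fell: Ifi214 by 0.69 ± 0.14, Ifi213 by 0.65 ± 0.09, Mndal by 0.55 ± 0.08, Ifi205 by 0.47 ± 0.08 and Ifi207 by 0.33 ± 0.08. Slfn1, a Schlafen gene known as a growth regulator of mouse T cells, was at 5.67, 5.67 and 5.81 with 6860766, against 6.72, 6.63 and 6.24 with vehicle, and fell by 0.82 ± 0.14 (adjusted p = 0.0019).

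Regulators of interferon signalling fell in 6 of 27 cases (22.2%, against 1.79% of all features) and rose in 0. The list median was -0.09, against 0.01 over all features, and 19 of the 27 differences were negative. Socs1, which blocks JAK kinases as a feedback inhibitor, was at 6.24, 6.33 and 6.19 with 6860766, against 7.35, 6.82 and 7.04 with vehicle, a difference of -0.82 ± 0.14 (adjusted p = 0.0019). The vehicle arrays spread more than the 6860766 arrays but did not overlap them. Irf7, the factor that amplifies interferon production, was at 8.52, 8.51 and 8.74, against 9.15, 9.31 and 9.10 with vehicle, and fell by 0.60 ± 0.08. Batf2 fell by 0.58 ± 0.08, Stat2, a subunit of the interferon-activated factor ISGF3, by 0.45 ± 0.09, the STAT5 feedback gene Cish by 0.42 ± 0.11 and Irf2 by 0.26 ± 0.06. In contrast Irf1 was at 12.93, 13.09 and 13.03 with 6860766, against 12.86, 13.06 and 13.01 with vehicle, and its difference of 0.04 ± 0.07 had a 95% interval of -0.09 to 0.18 (adjusted p = 0.87). Without the vehicle array of mouse 3 the list had 3 falls.

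Some falls outside the lists are given here for genes known to respond to interferon. They were picked after their values were seen, so no count of such genes tested stands behind them. Among them were Daxx, a histone chaperone of PML bodies (-0.61 ± 0.07), with Pml itself (-0.32 ± 0.07) and Sp140 (-0.48 ± 0.11). Trex1, the exonuclease that clears cytosolic DNA, fell by 0.52 ± 0.07, and Phf11d and Phf11a by 0.54 ± 0.09 and 0.42 ± 0.07. Helz2 fell by 0.44 ± 0.08, Znfx1 by 0.30 ± 0.07, Uba7, the E1 enzyme of ISG15, by 0.23 ± 0.06, and Mlkl, the effector of necroptosis, by 0.25 ± 0.06. Cd69, a lectin-like activation marker, was at 11.62, 11.70 and 11.77 with 6860766, against 12.30, 12.29 and 12.47 with vehicle, and fell by 0.66 ± 0.07 (adjusted p = 8.33e-06). Its second detected probe, at 4.82 on average and so near background, gave 0.15 and did not pass.

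**Figure D3:**
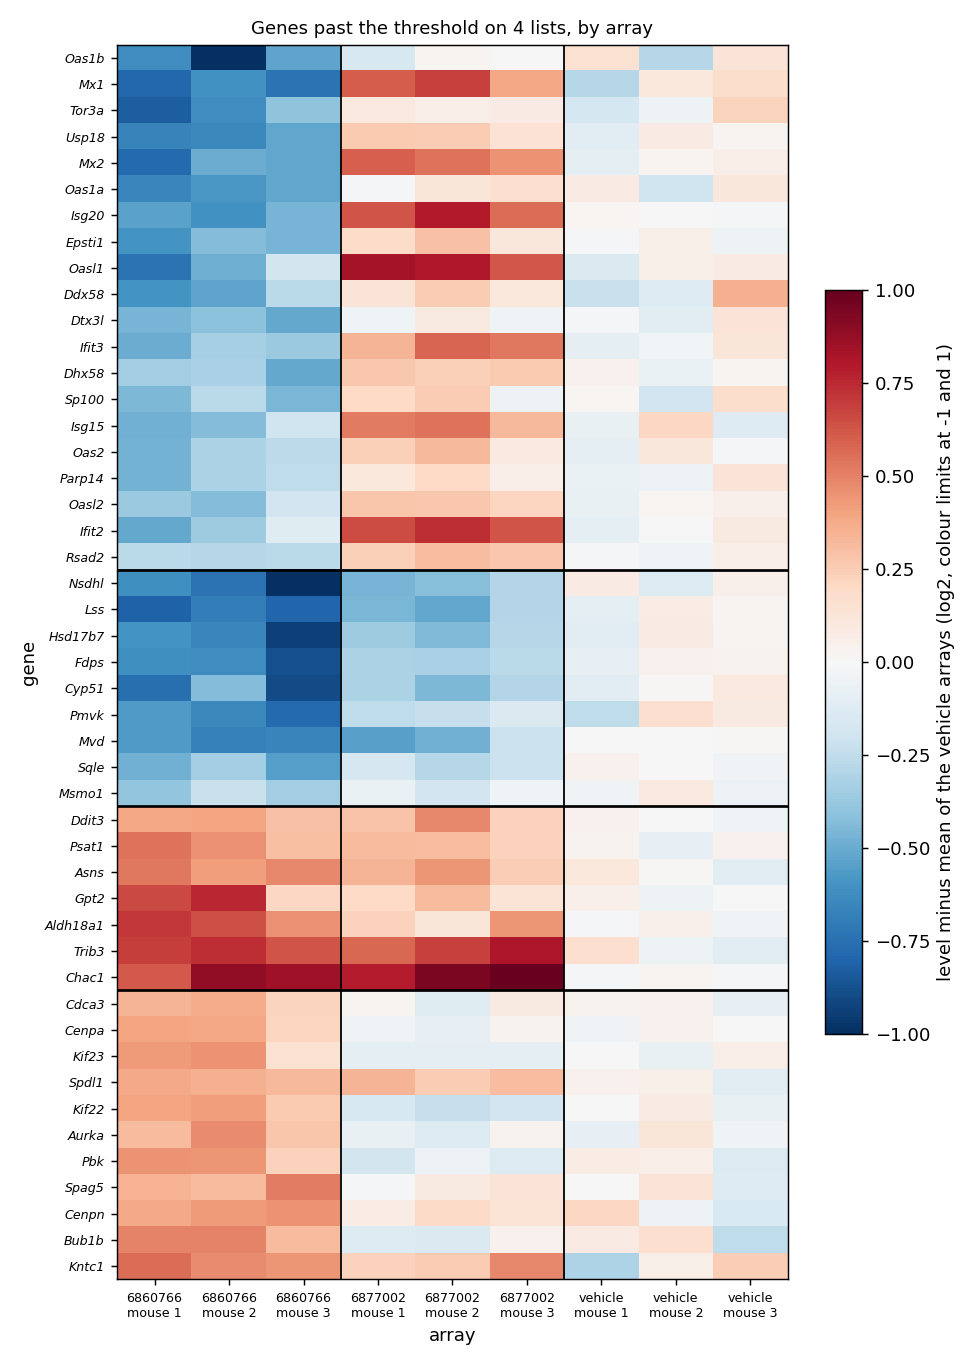
Level minus the mean of the vehicle arrays (log2, colour, limits at -1 and 1) on each array, with 6860766 at left, 6877002 in the middle and vehicle at right, for the called genes of 4 lists, from the top the interferon effectors, sterol synthesis, ATF4 targets and kinetochore and spindle genes. The 20 interferon effectors are blue on the 6860766 arrays and mostly red on the 6877002 arrays, and the 9 sterol genes are blue with both compounds.

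Few of the tested genes of CD40 and NF-kB signalling passed. Traf2, Traf3 and Nfkb1 were not analysed here. Of 24 tested genes of CD40 and TRAF signalling, 2 fell (8.33%), 0 rose and 22 did not pass, a share above the 2.88% of all features. Cd40 itself was at 13.01, 13.06 and 12.91 with 6860766, against 13.21, 13.25 and 13.35 with vehicle, and fell by 0.28 ± 0.06 (0.82 of the vehicle level, adjusted p = 0.015). Myd88, the adaptor of Toll-like receptors, fell by 0.25 ± 0.06. The second detected probe of Myd88, at 10.10 on average and so well above background, gave -0.07 and did not pass. Cd40 and Myd88 each lost the call without at least 1 of the 6 arrays. Traf6 was at 9.30, 9.25 and 9.38, against 9.30, 9.33 and 9.32 with vehicle, and its difference of -0.01 ± 0.07 had an interval of -0.16 to 0.14. Traf1 differed by -0.08 ± 0.08 and Traf5 by -0.04 ± 0.15, and neither passed. Among 15 NF-kB subunits and feedback genes 1 passed, Nfkbiz, the atypical inhibitor that co-activates Il6, which fell by 0.27 ± 0.07. Nfkbia, the main inhibitor, differed by -0.11 ± 0.07, Rela by 0.12 ± 0.08 and Nfkb2 by -0.05 ± 0.11, with no call. Of 23 MAP kinase genes, the phosphatase Dusp3 rose by 0.36 ± 0.07, and Dusp16 and the kinase Map3k8 fell by 0.41 ± 0.09 and 0.30 ± 0.08.

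Of 22 tested cytokines 7 fell (31.8%, against 1.79% of all features), 0 rose and 15 did not pass, with a list median of -0.26. Csf2, the gene of the myeloid growth factor GM-CSF, was at 6.83, 7.02 and 7.34 with 6860766, against 7.84, 7.91 and 7.81 with vehicle, and fell by 0.79 ± 0.12 (adjusted p = 0.00082). The 6860766 array of mouse 3 lay nearest to the vehicle arrays. Il12a, the p35 chain of interleukin-12, was at 5.58, 5.89 and 5.96, against 6.34, 6.58 and 6.71 with vehicle, and fell by 0.73 ± 0.14. Its relatives Il27 and Ebi3, which together form interleukin-27, fell by 0.61 ± 0.12 and 0.27 ± 0.07. Il15, on which natural killer cells depend, fell by 0.52 ± 0.08, and Il1a and Il18 of the interleukin-1 family by 0.43 ± 0.09 and 0.38 ± 0.08. Csf2, Il12a and Il15 did not depend on any single array of the 6. The count was 3 without the vehicle array of mouse 3 and 4 without the 6860766 array of mouse 2. The list median was -0.44 within slide 1 and -0.15 between slides 3 and 4.

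The classical inflammatory cytokines stayed near the vehicle level or varied between arrays. Il1b was at 14.08, 14.21 and 14.20 with 6860766, against 14.10, 14.23 and 14.08 with vehicle, and the difference of 0.03 ± 0.06 had an interval of -0.10 to 0.16. Tnf differed by -0.12 ± 0.07 (-0.27 to 0.03, adjusted p = 0.54). Il6 was at 8.50, 8.20 and 9.41 with 6860766, against 9.24, 9.40 and 9.43 with vehicle. The arrays of mice 1 and 2 lay below every vehicle array and that of mouse 3 among them, and the difference of -0.65 ± 0.21 (-1.10 to -0.21) did not pass (adjusted p = 0.13). Nos2, the inducible nitric oxide synthase, differed by -0.46 ± 0.14 with no call (adjusted p = 0.09).

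Among 18 chemokines 5 fell (27.8%, against 1.79% of all features) and 0 rose, while the list median was -0.07. Besides Cxcl10, Cxcl9, which binds the same receptor, fell by 0.70 ± 0.17. Cx3cl1, a membrane-anchored chemokine, was at 6.16, 6.27 and 6.42 with 6860766, against 7.17, 7.26 and 7.35 with vehicle, and fell by 0.97 ± 0.12 (adjusted p = 6.92e-05). Ccl17, a ligand of CCR4, was at 9.12, 8.95 and 9.23, against 9.76, 9.70 and 9.75 with vehicle, and fell by 0.63 ± 0.12, and the monocyte chemokine Ccl12 fell by 0.42 ± 0.09. Ccl2 (-0.10 ± 0.09) and Ccl5 (-0.07 ± 0.06) did not pass. The count was 3 without the 6860766 array of mouse 2 or the vehicle array of mouse 2. Of 31 receptors of cytokines and chemokines, Il7r was the only call.

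Pattern receptors and Fc receptors fell in 6 of 30 cases and rose in 1, so that 23.3% passed, against 2.88% of all features. Fcgr1, the high-affinity IgG receptor and a gene that interferon induces, was at 8.98, 8.85 and 8.91 with 6860766, against 9.34, 9.60 and 9.46 with vehicle, and fell by 0.55 ± 0.10 (adjusted p = 0.0026). Nod1, a sensor of bacterial cell walls, fell by 0.45 ± 0.08, Tlr8 by 0.42 ± 0.11, Fcgr4 by 0.40 ± 0.07, Nlrc5, an activator of MHC class I genes, by 0.37 ± 0.08 and Tlr6 by 0.30 ± 0.06. The count was 4 without the vehicle array of mouse 1 or 2. Clec7a, the receptor of fungal glucans also called dectin-1, was at 9.67, 9.88 and 10.10 with 6860766, against 9.35, 9.39 and 9.43 with vehicle, and rose by 0.49 ± 0.10. Other lectins and paired receptors, listed after values were seen, moved in both directions: Clec4a1, Clec4b1, Tarm1 and Pilrb1 fell by 0.36 to 0.50, and Trem2, a lipid-binding receptor of macrophages, rose by 0.40 ± 0.08. Of 30 genes of MHC and co-stimulation 1 passed, Tap1, the peptide transporter, which fell by 0.35 ± 0.08. Cd28, a co-stimulatory receptor that was not on that list, was called higher with 6860766.

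G protein-coupled receptors moved in both directions. Gpr84, a receptor for medium-chain fatty acids, fell by 0.42 ± 0.06, Hcar2, the niacin receptor, by 0.40 ± 0.09 and Gpr18 by 0.50 ± 0.09, whereas the prostaglandin E2 receptor Ptger2 rose by 0.61 ± 0.14, Gpr137b-ps by 0.29 ± 0.06 and Rgs1, which shortens G protein signals, by 0.36 ± 0.07. These were the 6 calls among 48 tested genes (12.5%). The rises numbered 1 without the 6860766 array of mouse 2 or the vehicle array of mouse 1. Of 11 genes for eicosanoids and related mediators, Hdc and the endothelin gene Edn1 (-0.43 ± 0.11) fell and the thromboxane synthase Tbxas1 rose (0.40 ± 0.08).

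Calls among enzymes of cholesterol synthesis were all falls. Of 22 tested genes of sterol synthesis and uptake, 9 fell (40.9%), 0 rose and 13 did not pass, with a median of -0.31. In the order of the pathway, the calls were Pmvk (-0.66 ± 0.11), Mvd (-0.63 ± 0.08) and Fdps (-0.70 ± 0.07), which lead from mevalonate to farnesyl diphosphate, Sqle (-0.46 ± 0.07) and Lss (-0.77 ± 0.08), which make and close squalene epoxide, and Cyp51 (-0.69 ± 0.10), Msmo1 (-0.32 ± 0.07), Nsdhl (-0.82 ± 0.11) and Hsd17b7 (-0.73 ± 0.08), which remove methyl groups and a keto group on the way to cholesterol. Lss was at 9.63, 9.75 and 9.65 with 6860766, against 10.34, 10.52 and 10.47 with vehicle, and its adjusted p was 8.33e-06. Fdps was at 12.18, 12.18 and 11.92, against 12.71, 12.84 and 12.83 with vehicle. Its second detected probe, at 7.08 on average, gave -0.22 and did not pass, whereas the other detected probes of Nsdhl all fell and passed. Nsdhl was at 8.12, 8.00 and 7.61, against 8.81, 8.60 and 8.79 with vehicle. In all 3 genes the groups were apart, and for Fdps and Nsdhl the 6860766 array of mouse 3 was the lowest.

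Erg28, a scaffold protein of the sterol C4 demethylation complex that was on no list, also fell (-0.39 ± 0.08). Insig1, the sterol sensor, was at 7.83, 7.75 and 8.45 with 6860766, against 8.23, 8.05 and 8.40 with vehicle, and its difference of -0.21 ± 0.14 did not pass. Idi1, an isomerase of the same pathway, differed by -0.23 ± 0.17 with no call. Of the 9 calls 8 passed whichever array was left out, Msmo1 being the exception, and the median was -0.35 within slide 1 and -0.46 between slides 3 and 4. The letters TCACNCCAC of the classical sterol regulatory element, searched on both strands, stood in 0 of the 7 promoters available for the fallen sterol genes. They stood in 1.47% of promoters of all genes that fell, 1.23% of those that rose, 0.831% of those tested and 1.04% of all promoters of the same length. With 7 promoters the share among such genes is poorly known, and a part of SREBP2 was not tested. Like the interferon motifs, this motif and the next were chosen with the results known. The letters CCAAT, which NF-Y binds beside SREBP, stood in 7 of 7, in 34.6% of promoters of all genes that fell, 53.1% of those that rose, 36.7% of those tested and 34.5% of all promoters.

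On a list of 13 genes of acetyl-CoA supply and fatty acid desaturation, chosen after values were seen, 4 fell, 1 rose and 8 did not pass. Acss2, which makes acetyl-CoA from acetate, averaged 8.98 ± 0.02 with 6860766 and 9.66 ± 0.10 with vehicle (SD, n = 3 arrays each), and fell by 0.68 ± 0.07 (adjusted p = 2.33e-05). Scd1, the stearoyl-CoA desaturase, was at 8.55, 8.54 and 8.53, against 9.20, 9.06 and 9.27 with vehicle, and fell by 0.64 ± 0.08. The spread of the 6860766 arrays was smaller than that of the vehicle arrays for both genes. Fads2, the delta-6 desaturase, fell by 0.70 ± 0.13 and Acly, ATP citrate lyase, by 0.38 ± 0.07, whereas Acss1, the mitochondrial relative of Acss2, rose by 0.42 ± 0.09. With Ch25h, Fads2, Scd1 and Acly were the 4 falls among 19 oxysterol and LXR genes, whose median was -0.02, and all 4 passed whichever array was left out.

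Genes of lipid droplets and lipid uptake rose in 3 of 19 cases (15.8%, against 1.09% of all features) and fell in 0, with a median of 0.14. Plin2, a coat protein of lipid droplets, was at 10.67, 10.48 and 10.38 with 6860766, against 9.92, 9.81 and 9.83 with vehicle, and rose by 0.65 ± 0.09, or 1.57-fold (adjusted p = 0.00019). The other calls were Plin3 (0.31 ± 0.08) and Trem2, and the count was 5 without the 6860766 array of mouse 3 and 2 without the 6860766 array of mouse 2 or the vehicle array of mouse 1 or 3. Nceh1, a hydrolase of cholesterol esters, was on no list and rose by 0.42 ± 0.07, and so did Slco4a1, an organic anion transporter (0.64 ± 0.11), and Tmem120a (0.28 ± 0.07).

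Calls among targets of ATF4 were all rises. Of 22 tested genes 7 rose (31.8%), 0 fell and 15 did not pass, and 20 of the 22 differences were positive, with a median of 0.31. Chac1, which breaks down glutathione, was at 9.25, 9.52 and 9.49 with 6860766, against 8.62, 8.67 and 8.63 with vehicle, and rose by 0.78 ± 0.09, or 1.72-fold (adjusted p = 2.30e-05). Trib3, a pseudokinase that feeds back on ATF4, was at 8.87, 8.92 and 8.80, against 8.34, 8.12 and 8.06 with vehicle, and rose by 0.69 ± 0.09. Asns, asparagine synthetase, was at 11.93, 11.82 and 11.88, against 11.50, 11.41 and 11.28 with vehicle, and rose by 0.48 ± 0.07. For these 3 genes no 6860766 array reached down to the vehicle arrays. The other calls were Aldh18a1 of proline synthesis (0.60 ± 0.10), the alanine transaminase Gpt2 (0.54 ± 0.13), Psat1 of serine synthesis (0.43 ± 0.08) and Ddit3, the gene of CHOP (0.36 ± 0.08). Atf4 itself was at 12.38, 12.66 and 12.85, against 12.18, 12.44 and 12.38 with vehicle, and its difference of 0.30 ± 0.10 did not pass (adjusted p = 0.12).

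Of the 7 calls 5 passed whichever array was left out, the exceptions being Ddit3 and Gpt2, and the median was 0.37 within slide 1. Of 17 aminoacyl-tRNA synthetases 1 rose, Nars, which loads asparagine (0.40 ± 0.07). Of 18 chaperones and other genes of the unfolded protein response 0 passed in limma, 1 had an unadjusted p under 0.05, and their differences lay between -0.15 and 0.21. Castor1, the arginine sensor of mTORC1, rose by 0.61 ± 0.15. The promoters of Asns (chr6:7693210-7693459, minus strand) and Chac1 (chr2:119350992-119351241, plus strand) are shown because they were the ATF4 targets that rose and held the letters TGATGNAA, which ATF4 can bind with a C/EBP partner. The letters were searched on both strands, stand in 3.70% of promoters of genes that rose, 3.68% of those that fell, 2.10% of those tested and 3.53% of all promoters, and are in capitals below, with the gene's strand 5′ to 3′ from RefSeq (GRCm38.p6).
Asns: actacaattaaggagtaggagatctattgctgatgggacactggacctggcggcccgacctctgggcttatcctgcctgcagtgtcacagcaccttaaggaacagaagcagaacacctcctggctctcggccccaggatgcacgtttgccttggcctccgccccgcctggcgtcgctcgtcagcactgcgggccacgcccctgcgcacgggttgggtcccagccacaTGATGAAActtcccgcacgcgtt
Chac1: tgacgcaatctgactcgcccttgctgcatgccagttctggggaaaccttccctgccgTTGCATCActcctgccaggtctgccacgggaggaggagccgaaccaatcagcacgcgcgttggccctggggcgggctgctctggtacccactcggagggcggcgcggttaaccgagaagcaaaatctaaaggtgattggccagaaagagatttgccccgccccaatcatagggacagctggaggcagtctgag
The match lies at -23 to -16 in Asns and, on the opposite strand, at -193 to -186 in Chac1.

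Most genes of cell division did not pass. On a list of 37 kinetochore, spindle and cytokinesis genes, chosen after values were seen, 11 rose, 0 fell and 26 did not pass, 34 of the 37 differences were positive, and the median was 0.24. The calls were Kntc1, Bub1b, Cenpn, Spag5, Pbk, Aurka, Kif22, Spdl1, Kif23, Cenpa and Cdca3, with rises of 0.31 to 0.49. Bub1b, a mitotic checkpoint kinase, was at 8.31, 8.31 and 8.13 with 6860766, against 7.90, 7.97 and 7.56 with vehicle, a rise of 0.44 ± 0.11 (adjusted p = 0.035). Cenpa, the histone of centromeres, was at 11.79, 11.78 and 11.61, against 11.36, 11.44 and 11.39 with vehicle, a rise of 0.33 ± 0.07 (adjusted p = 0.0077). For both genes the 6860766 array of mouse 3 was the lowest of its group and still lay above the vehicle arrays. The number depended on single arrays: the list had 0 rises without the 6860766 array of mouse 2, 2 without the vehicle array of mouse 3, 3 without the array of mouse 1 of either group and 6 without the vehicle array of mouse 2. The median was 0.26 within slide 1 and 0.15 between slides 3 and 4.

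The wider list of cell cycle and replication genes had 4 rises and 2 falls among 35 tested, 29 of which did not pass, with a median of 0.16. Ccnd1, cyclin D1, was at 10.28, 9.84 and 9.87 with 6860766, against 9.48, 9.43 and 9.14 with vehicle, and rose by 0.64 ± 0.11. Ccnd2, cyclin D2, was at 7.65, 7.57 and 7.60, against 8.09, 8.18 and 8.12 with vehicle, and fell by 0.52 ± 0.08, so that the D-type cyclins moved in opposite directions. Both passed whichever array was left out. Cdt1, a replication licensing factor, rose by 0.41 ± 0.09, and Cdkn1a, the inhibitor p21, fell by 0.27 ± 0.06, while Cdkn1c, the inhibitor p57, rose by 0.60 ± 0.13 with groups that overlapped. The number of rises on this list was 1 without the vehicle array of mouse 3 and 2 without the 6860766 array of mouse 1 or 2 or the vehicle array of mouse 1. Of 41 clustered core histone genes, listed after values were seen, 6 of the H2A type rose by 0.29 to 0.46, and since these genes are near-identical in sequence, the copy to which a probe's signal belongs is not known. Their number was 2 without the 6860766 array of mouse 1, and 3 without the 6860766 array of mouse 2 or the vehicle array of mouse 3.

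Growth factors and their receptors had 1 rise, 0 falls and 10 genes that did not pass, and proteases and their inhibitors 2 rises, 2 falls and 21 that did not pass. Plau, the urokinase gene, was at 8.15, 8.11 and 7.86 with 6860766, against 7.38, 7.15 and 7.21 with vehicle, and rose by 0.79 ± 0.10, or 1.73-fold (adjusted p = 0.00016). Pdgfa, a growth factor for mesenchymal cells, was at 8.60, 8.63 and 8.76, against 7.96, 8.08 and 7.75 with vehicle, and rose by 0.73 ± 0.09. Emp1, a membrane protein of epithelia and leukocytes, was at 11.65, 11.40 and 11.30, against 10.88, 10.78 and 10.63 with vehicle, and rose by 0.69 ± 0.09. In each the groups were apart. The macrophage elastase gene Mmp12 rose by 0.52 ± 0.11, while Mmp14, a membrane-bound collagenase, and Ctsc, a lysosomal protease, fell by 0.37 ± 0.07 and 0.32 ± 0.06. These were, with Plau, the 4 calls among 25 protease genes.

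Further rises that passed whichever array was left out included Slc40a1, the iron exporter ferroportin (0.41 ± 0.07), Slc6a8, the creatine transporter (0.33 ± 0.07), Rab7b, a GTPase of late endosomes (0.42 ± 0.08), and Plk2, a kinase known as a p53 target (0.49 ± 0.08). Falls of that kind included Hspa1a, an inducible heat shock protein (-0.62 ± 0.08), Slc16a3, the lactate exporter (-0.69 ± 0.13), Ikzf1, the gene of the lymphoid factor Ikaros (-0.38 ± 0.07), and Rasgrp1, an activator of Ras (-0.46 ± 0.07). Dcstamp, needed for the fusion of macrophages into multinucleated cells, was detected on 3 of 3 6860766 arrays and 0 of 3 vehicle arrays and was at least 1.42-fold higher with 6860766. C1rl, a relative of complement C1r, was detected on 0 of 3 6860766 arrays and 3 of 3 vehicle arrays and was at least 1.44-fold lower with 6860766. Both passed the detection filter mainly through the group in which they were high, so that a difference was bound to appear, and these bounds are a description.

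**Figure D4:**
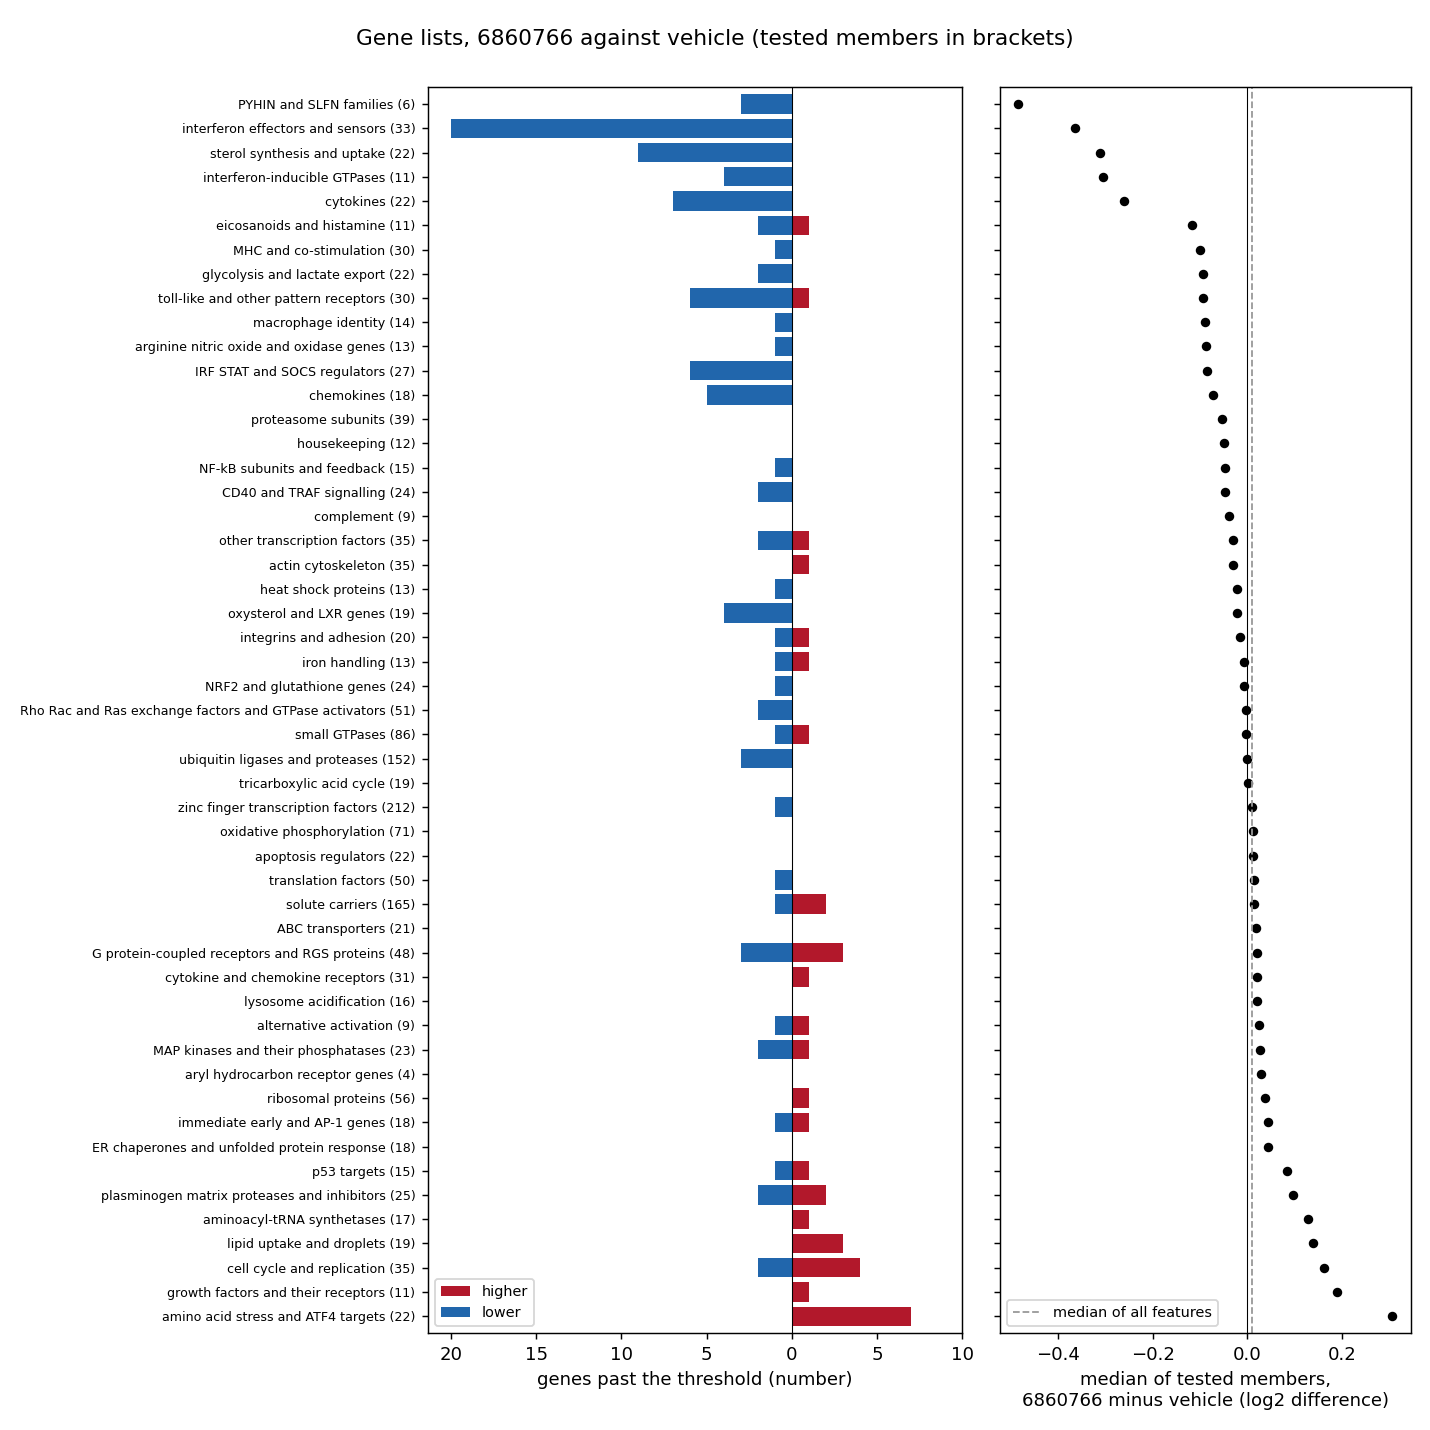
Left, the number of genes past the threshold on each of 51 lists, lower with 6860766 to the left in blue and higher to the right in red. Right, the median difference of the tested members (log2, black points) beside the median of all features (dashed line). Interferon effectors reach 20 falls and ATF4 targets 7 rises, and most of the larger housekeeping lists lie at the dashed line.

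Basic cell functions showed few calls. None of the 71 genes of oxidative phosphorylation, 19 of the citric acid cycle, 39 of the proteasome, 16 of lysosome acidification, 22 of apoptosis control, 21 ABC transporters or 12 housekeeping genes passed in limma. At an unadjusted p under 0.05 there were 1, 3, 7, 1, 3, 3 and 1 of them, in the same order, against 1453 of all 11406 features. Of the 39 proteasome differences 31 were negative, with a median of -0.05. Among 56 ribosomal protein genes 1 rose, Rps21, among 212 zinc finger transcription factors 1 fell, Klf2, and among 165 solute carriers 3 passed (1.82%), all below or near the 2.88% of all features. Glycolysis had 2 falls among 22 genes, Slc16a3 and Pfkl, with a median of -0.09. NRF2 and glutathione genes had 1 fall among 24, Gstt1, and Hmox1 differed by -0.01 ± 0.08 with an interval of -0.17 to 0.15. In total 129 called genes stood on 1 or more of the 51 lists and 145 on none.

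The gene calls on no list, 67 higher and 78 lower, held several that had not been described with a pathway above. Tpst1, which sulfates tyrosines of secreted proteins, was at 9.22, 9.21 and 9.20 with 6860766, against 9.68, 9.84 and 9.87 with vehicle, and fell by 0.59 ± 0.07 (adjusted p = 8.11e-05). Enpp4 fell by 0.71 ± 0.14, Mgarp, a mitochondrial protein, by 0.90 ± 0.20 and Shisa3 by 0.75 ± 0.18, all dim genes with a wider error. Gja1, the gap junction protein connexin 43, fell by 0.39 ± 0.08 and Agrn, the gene of agrin, by 0.43 ± 0.07. On the rising side, St6gal1, a sialyltransferase, was at 6.20, 6.50 and 6.26, against 5.34, 5.42 and 5.86 with vehicle, and rose by 0.78 ± 0.17. Gprc5b rose by 0.74 ± 0.18, Rassf8 by 0.67 ± 0.12, Htr4, a serotonin receptor, by 0.63 ± 0.15, Jade1 by 0.60 ± 0.10 and Lhfpl2 by 0.57 ± 0.08. A further 54 called probes carried no gene symbol, 23 higher and 31 lower, with differences from -1.36 to 0.69.

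The calls were also read against 6877002 in the same fit. Since both compounds were compared with the same vehicle arrays, each gene's values are given side by side and the compounds were tested against each other directly, as 1 pair over all features, at doses that the labels do not give. In that test 515 features (4.52%) passed, 136 higher with 6860766 (1.19%) and 379 lower (3.32%). The compounds were unevenly spread over slides: with the slide set (slides 1 and 2 against 3 and 4) as a block 369 features passed, and with slide as a block 460. The count was 332 without the 6860766 array of mouse 2, 1059 without that of mouse 3, and 315 and 319 without the 6877002 arrays of mice 2 and 1. Slide 3 alone held both compounds, with 1 array of 6860766 and 2 of 6877002. Cxcl10 differed from vehicle by -1.12 with 6860766 and by 0.14 with 6877002, and by -1.26 ± 0.07 between the compounds (adjusted p = 2.24e-09). Hdc differed by -0.85 and -0.08 from vehicle, Socs1 by -0.82 and 0.09, and Cd69 by -0.66 and 0.11, in each case with the compounds apart (-0.77 ± 0.09, -0.91 ± 0.14 and -0.76 ± 0.07). Of the 33 interferon effectors, 29 were lower with 6860766 than with 6877002 and 0 higher, with list medians from vehicle of -0.36 for 6860766 and 0.26 for 6877002. The GTPase Gm4951, for example, differed by -0.56 with 6860766 and 1.06 with 6877002. The list of 37 kinetochore and spindle genes had 11 genes higher and 0 lower with 6860766 than with 6877002, and medians from vehicle of 0.24 for 6860766 and -0.06 for 6877002. Within slide 3, a comparison added after the data were seen, the median difference between the compounds was -0.54 for the interferon effectors and 0.27 for the kinetochore and spindle genes, against 0.02 for all features, and that of Cxcl10 was -1.18.

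Other genes moved the same way with both compounds. Of the 22 sterol genes, 5 were lower with 6860766 than with 6877002 and 0 higher. Fdps differed from vehicle by -0.70 with 6860766 and -0.30 with 6877002 (-0.40 ± 0.07 between them, adjusted p = 0.00155), and Lss by -0.77 and -0.42 (-0.34 ± 0.08, adjusted p = 0.0096). For the 22 ATF4 targets the compounds did not differ in any gene past the threshold. Against vehicle 7 of them rose with 6860766 and 4 with 6877002, and the median difference between the compounds was 0.13. Before adjustment, the intervals between the compounds lay above 0 for Aldh18a1 (0.12 to 0.56) and Gpt2 (0.04 to 0.60). Those of Asns, Chac1, Ddit3, Psat1 and Trib3 reached across 0. Trib3 differed from vehicle by 0.69 with each compound, and the interval of the difference between them was -0.19 to 0.19. Chac1 differed by 0.78 with 6860766 and 0.91 with 6877002, and the interval between them was -0.30 to 0.06. Plau (0.79 and 0.82), Plin2 (0.65 and 0.61), Ccnd1 (0.64 and 0.65) and Emp1 (0.69 and 0.82) also rose with both compounds. The intervals between the compounds were -0.24 to 0.19 for Plau, -0.14 to 0.23 for Plin2, -0.23 to 0.23 for Ccnd1 and -0.32 to 0.05 for Emp1, so that a difference of that size between the compounds would not have been seen. A few genes moved less with 6860766: Pdgfa by 0.73 against 1.49 with 6877002 (-0.76 ± 0.09), Rgs1 by 0.36 against 1.06 (-0.71 ± 0.07) and Il7r by 0.84 against 1.20 (-0.36 ± 0.08, adjusted p = 0.015). Serpinb2, the gene of plasminogen activator inhibitor 2, differed by -0.53 ± 0.18 with 6860766, which did not pass, and by 1.89 with 6877002, and Ahrr, a repressor of the aryl hydrocarbon receptor, by 0.16 ± 0.11 and 1.47.

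**Figure D5:**
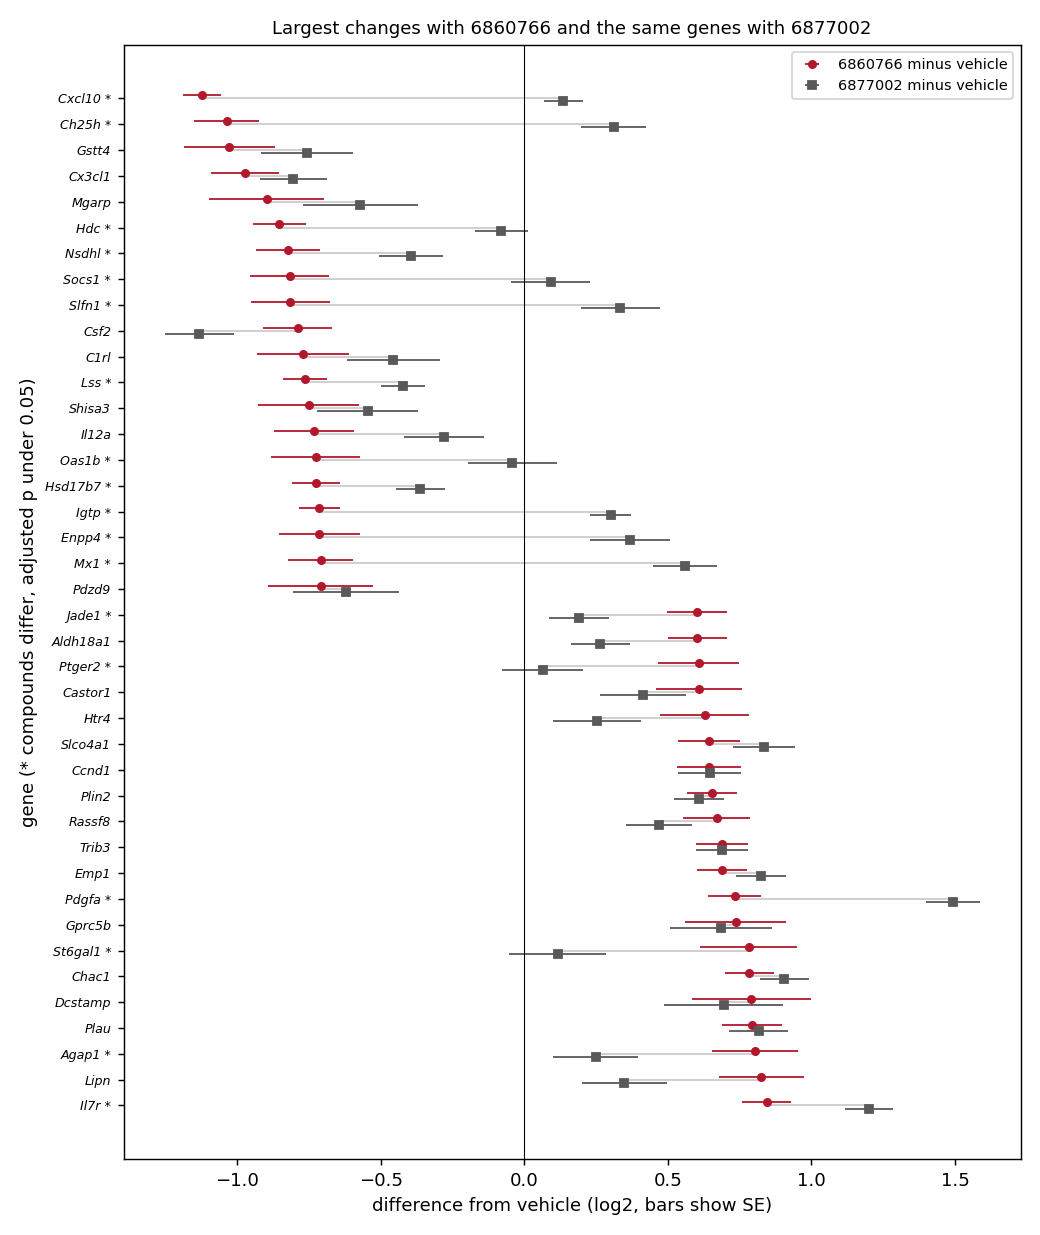
Difference from vehicle (log2, horizontal axis) with 6860766 (red circles) and 6877002 (grey squares) for the 20 genes with the largest named falls and the 20 with the largest named rises under 6860766, with SE as bars (n = 3 arrays per group). A star marks genes for which the compounds differ, such as Cxcl10 with -1.12 and 0.14, while the 2 symbols of Trib3, Plau and Ccnd1 lie on each other.

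For 112 called genes another probe was detected, 161 probes in all. Of these, 145 had the same sign and 50 were called as well. The 16 of opposite sign lay in 15 genes (Trim21, Mndal, Lss, Tbxas1, Slco3a1, Gng12, Kif23, Tlr6, Aftph, Cd69, Pcgf5, Daglb, St7, Cers6 and Gm4951), and 0 of them passed. The second probe of Lss had a mean level of 5.31, and gave 0.05 (adjusted p = 0.95).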

How the data were processed

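RNA of 9 macrophage cultures was measured on Illumina mouse bead arrays, 3 each with 6860766, 6877002 and vehicle. The deposited intensity of each probe, with its detection p-value, came from GenomeStudio 2011.1, per the submitters' processing notes. The authors' deposited log2 values came from R 3.1.3 and limma 3.22.7, per the same notes, and differed from own neqc values of the intensities by at most 0.0161. These log2 values were used as deposited. Probes with a detection p-value under 0.05 on at least 3 of 9 arrays were kept (16415 of 45281). Of several probes of a gene, 1 was used, which gave 11406 features, 9081 with a symbol.

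All 9 arrays were fitted by group with limma 3.58.1 in R 4.3.3 (lmFit, eBayes with a trend, 6 residual degrees of freedom), with Benjamini-Hochberg adjustment over all features. The number of arrays limits the precision. In data simulated for 6860766 against vehicle with 200 changed genes of 11406, 51% were recovered at 1.3-fold, 85% at 1.5-fold and 100% at 2-fold. Unchanged genes called by mistake numbered 2, 9 and 9. The simulated spread followed the level of a gene alone, with no slide effect, so recovery in the real arrays may be lower. Genes were named from the largest changes, from the called members of gene lists and from a set of CD40, NF-kB and macrophage genes, 16 of 25 of which were tested. The members and lists were chosen with earlier results of these data known. Alternatives covered background correction, scaling, filters, probe choice, the fit, slide, mouse number and each array left out. Promoter sequences came from RefSeq (GRCm38.p6).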

Additional observations from a re-analysis of the deposited data

How the results depend on the processing

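The 328 calls kept their sign under each alternative that gave them a value, and no result reversed. Where an array was left out this was nearly fixed beforehand, since the groups of 323 calls did not overlap. Requiring detection on all 9 arrays gave a value to 321 of the 328 calls and every other alternative to all 328. Scaling over all probes left 167 calls, 81 of them lower, and 307 between the compounds. A fit of the 6 arrays alone left 82 rises, and a fit without the variance trend 120 calls, 35 higher and 85 lower. Array weights gave 1132 calls between the compounds, and the slide set as a block gave 195 rises. The cause was not tested, except that the fit of 6 arrays has fewer samples. Leaving out 1 array or 1 mouse gave 106 to 471 calls, 37 to 186 higher and 69 to 285 lower, and 193 to 1094 between the compounds. Same-numbered 6860766 and vehicle arrays deviated together by r = 0.159 for mouse 1, -0.134 for mouse 2 and -0.122 for mouse 3. So few pairs, unevenly spread over slides, cannot tell whether a number marks the same animal. With mouse as a replicate block 336 features passed. Over single genes, 6217 results kept their call, 1795 lost it, 33 gained it and 48 values without a test moved. Dim genes have wider errors, and 51% of 1.3-fold changes were recovered in simulated data.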
